A study of Mus musculus with 2 samples.

Results

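The polyamine metabolism genes of mouse macrophages were examined in nuclear RNA, with the transcripts of Sat1 in detail. The set has 9 genes, chosen by name from 55536 annotated genes: Sat1 and Paox for breakdown, Odc1, Amd1, Srm and Sms for synthesis, and Oaz1, Oaz2 and Azin1 for the antizyme system. The list was drawn up with earlier results of these libraries in view, and Sat1 was selected on the high level of its retained intron transcript here. Levels and transcript shares are therefore descriptions with no test.

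The cells were bone marrow derived macrophages, cultured as primary cells from C57BL/6J mice, and had received Lipid A, a ligand of Toll-like receptor 4, at 100 ng/ml for 10 min. RNA of the nucleoplasmic fraction, which other label fields call nucleus or nuclear, was depleted of ribosomal RNA and sequenced. The 2 libraries are biological replicates of 1 group, from separate biosamples that share 1 donor identifier, so the spread between them may be partly technical. Replicate 1 was made from 1 µg of RNA and replicate 2 from 500 ng. Sex and age are not recorded. Macrophages without Lipid A were not analysed here, so no value below is a response to it.

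Depth on annotated genes was 19153465 expected counts for replicate 1 and 11622346 for replicate 2. Over 14526 genes, the chi-square per degree of freedom between the libraries was 32.2, so they differed by more than sampling noise. All 9 macrophage markers examined, among them Csf1r and Lyz2, lay between 24.2 and 2309 TPM. All 8 markers of other blood, stromal and endothelial cells stayed under 1 TPM, with Cd3e and Ly6g among those at 0 counts in both libraries. In the second quantification used below, 1 of the 8 reached 1 TPM in both libraries: Siglech, a plasmacytoid dendritic cell marker, at 1.22 and 1.72 TPM. TPM is a relative abundance that divides counts by effective length, so it can be compared between genes.

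Polyamines (putrescine, spermidine and spermine) are small cations that bind RNA and are needed for growth. Ornithine decarboxylase makes putrescine, and spermidine and spermine synthases add aminopropyl groups taken from decarboxylated S-adenosylmethionine. In breakdown, the acetyltransferase SSAT, encoded by Sat1, acetylates spermidine and spermine, and the products leave the cell or are oxidised by the oxidase that Paox encodes. Antizymes bind ornithine decarboxylase, direct it to the proteasome and block polyamine uptake, and the antizyme inhibitor Azin1 binds antizyme in its place. Sat1 is also controlled by splicing: an alternative exon with a stop codon in frame turns its mRNA into a target of nonsense-mediated decay, and in mammalian cells its inclusion is known to be favoured when polyamines are low.

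Sat1 lies on the minus strand of the X chromosome at chrX:155213132-155216449 (mm10, GENCODE M21) and has 7 annotated transcripts. The coding transcript Sat1-201 has 6 exons and encodes 171 amino acids. Sat1-207 has the same 6 exons and, between exons 3 and 4, an alternative exon of 110 bases (chrX:155215121-155215230), in which the reading frame meets a stop after 71 codons. Sat1-206, annotated as retained intron, keeps the sequence from exon 3 through that alternative exon as 1 block and so holds all of its 110 bases. Sat1-205 starts downstream of the alternative exon and carries 770 bases of the intron before exon 4. Sat1-203 keeps the 266 bases of the first intron and 146 bases after exon 3, and Sat1-204 keeps 95 bases between exons 4 and 5. Sat1-202, the other coding transcript, has 21 further bases at the start of exon 5 and encodes 178 amino acids.

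The sequences that set these transcripts apart are shown from the GENCODE M21 transcripts (minus strand, mm10, 5′ to 3′). The first pair starts with the last 24 bases of exon 3 (chrX:155215601-155215624). In Sat1-201 the capitals are the first 24 bases of exon 4, and in Sat1-207 they are the stop codon reached after 11 bases of the alternative exon (chrX:155215217-155215219).
Sat1-201: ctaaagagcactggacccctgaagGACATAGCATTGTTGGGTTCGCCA
Sat1-207: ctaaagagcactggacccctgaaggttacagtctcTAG
The second pair starts with the last 24 bases of exon 4 (chrX:155214033-155214056) and goes to the end of exon 5. The capitals are the 21 bases that Sat1-202 has and Sat1-201 lacks (chrX:155213938-155213958).
Sat1-202: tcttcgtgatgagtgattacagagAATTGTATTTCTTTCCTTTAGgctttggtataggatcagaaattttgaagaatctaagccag
Sat1-201: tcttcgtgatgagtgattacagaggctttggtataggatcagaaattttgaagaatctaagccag
The 21 bases are a multiple of 3 and leave the frame open, whereas the alternative exon of Sat1-207 ends it.

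**Figure D1:**
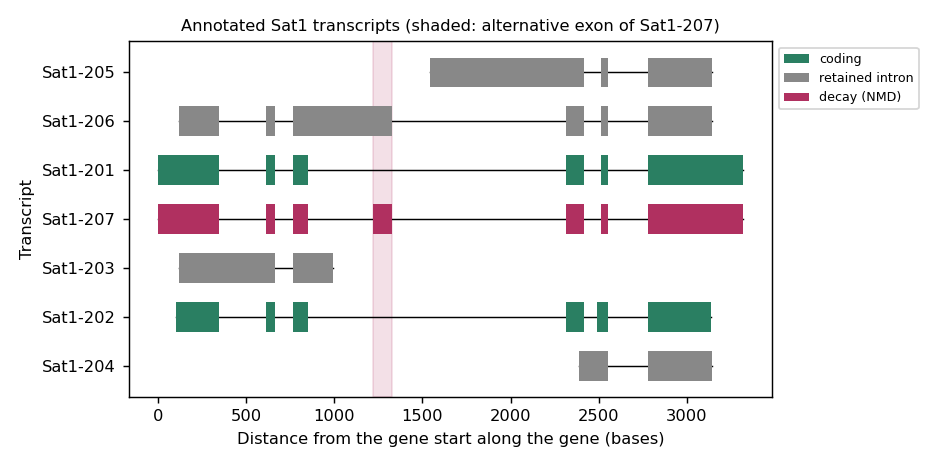
Exons of the 7 annotated Sat1 transcripts (boxes, coloured by annotated class) along the gene in bases from the start of Sat1-201, ordered from the highest mean TPM at the top. The shaded band is the 110-base alternative exon, which Sat1-207 has as an exon of its own and Sat1-206 has within a longer block.

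Sat1 had by far the highest level of the 9 genes, and most of it was not coding mRNA. The gene as a whole reached 706 TPM in replicate 1, against 645 TPM in replicate 2 (675 ± 43.0 TPM, SD, n = 2), from 15934 and 9546 expected counts, and it ranked 27 by mean among 22028 protein-coding genes. Transcripts annotated as retained intron held 71.5% of that level in replicate 1 and 79.1% in replicate 2 (75.3 ± 5.34%). The nonsense-mediated decay transcript held 9.79% and 9.45%, and the coding transcripts held 18.7% and 11.5% (15.1 ± 5.09%). Both libraries had the same order of classes, and the decay class varied least between them. By a second quantification that the authors deposited for each library, the order turned in replicate 2, where the decay transcript held 10.1% and coding transcripts 7.65%.

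The transcript Sat1-205 was the most abundant, at 296 TPM in replicate 1, against 339 TPM in replicate 2. Of its 1275 bases, 770 are intron of Sat1-201, so this transcript and unspliced precursor cannot be told apart here. Sat1-206 followed at 160 and 137 TPM. Coding Sat1-201 stood at 127 TPM in replicate 1, against 51.8 TPM in replicate 2, and the decay transcript Sat1-207 at 69.1 and 60.95 TPM. In replicate 1 the coding transcript was above the decay transcript, and in replicate 2 it was below it. Sat1-203 had 38.1 and 19.7 TPM, Sat1-204 had 10.2 and 14.5 TPM, and Sat1-202 had 4.82 and 22.3 TPM. The deposited intervals of Sat1-201 were 111 to 130 TPM in replicate 1 and 36.1 to 57.9 TPM in replicate 2, and those of Sat1-202 were 2.25 to 7.48 and 11.9 to 30.4 TPM. Neither pair of intervals overlaps, and the difference runs one way for Sat1-201 and the other way for Sat1-202. Intervals were also apart for Sat1-203, Sat1-205 and Sat1-206, so for 5 of the 7 transcripts, as they were for 18.9% of all 34114 transcripts averaging 1 TPM or more. The Sat1 transcripts averaged 12.4 to 318 TPM, well above that limit, so this comparison is between unlike levels. For Sat1-205, Sat1-206 and the Sat1 gene level the TPM lies above its own interval in both libraries, since the bounds belong to a separately deposited posterior estimate.

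**Figure D2:**
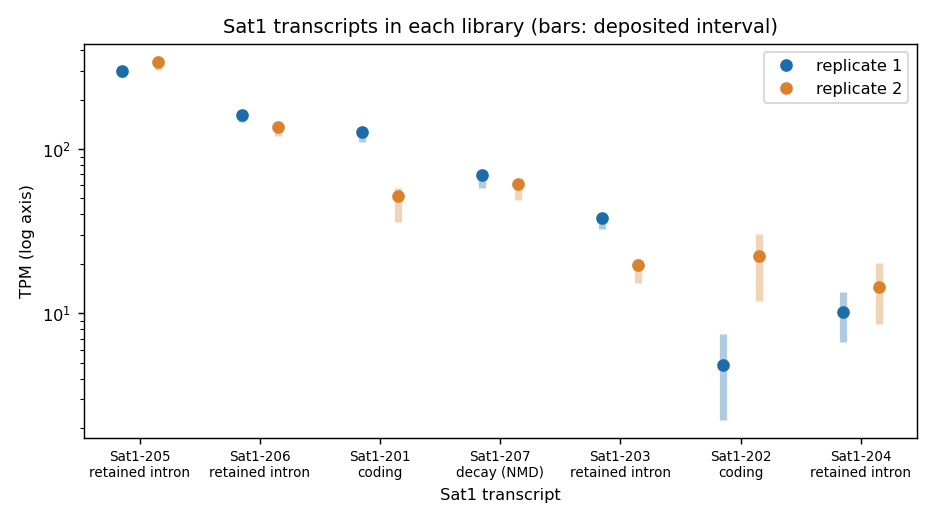
TPM (log axis) of the 7 Sat1 transcripts in replicate 1 (blue) and replicate 2 (orange); points are deposited TPM and bars the deposited interval of the posterior mean. Sat1-205 is highest in both libraries, and Sat1-201 is at 127 TPM in replicate 1 and 51.8 TPM in replicate 2.

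Among the 4 transcripts that contain exons 3 and 4 and what joins them, the alternative exon was present in 63.5% of TPM in replicate 1 and 72.7% in replicate 2 (68.1 ± 6.55%). Leaving out Sat1-206, whose block also cannot be told apart from precursor, Sat1-207 held 34.4% and 45.1% of the 3 transcripts with no retained intron (39.8 ± 7.60%). By the second quantification, a transcript table made from the reads, these shares were 73.2% and 81.8% with Sat1-206, and 44.6% and 56.9% without it. In each of the 4 settings the share was higher in replicate 2. These shares are estimated from transcripts that have most of their exons in common, and reads across single junctions were not analysed here.

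The retained intron share of Sat1 was set beside that of the 5233 protein-coding genes averaging 10 TPM or more. Their median retained intron share was 22.9% and their median coding share 64.9%. Among the 3777 of them with an annotated retained intron transcript, as Sat1 has, the medians were 33.3% and 57.2%. Retained intron transcripts held over 50% of TPM in 16.4% of all 5233 genes, and 110 of the 5233 had a higher retained intron share than Sat1. By the summed level of retained intron transcripts Sat1 ranked 6. Sat1 was selected on this level, so its place in the distribution is only a description. The share of the decay transcript was exceeded by 600 of the genes.

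Paox, the oxidase that acts after SSAT, had 13.6 TPM in replicate 1, against 12.7 TPM in replicate 2 (13.1 ± 0.679 TPM). Its long transcript Paox-201 accounted for 11.6 and 11.98 TPM, and no retained intron form is annotated for it. Paox shares 678 bases with Echs1 on the opposite strand, which itself had 13.2 and 10.9 TPM. No source used here states how strand was handled, so reads of Paox and Echs1 in the shared bases cannot be told apart.

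Of the other 8 genes, Sms alone is on the chromosome of Sat1 (mm10). On the plus strand are Oaz1 (chr10:80826656-80829290), Odc1 (chr12:17544794-17551505), Paox (chr7:140115799-140137224), Oaz2 (chr9:65668001-65690300) and Srm (chr4:148591503-148594993). On the minus strand are Azin1 (chr15:38487427-38519266), Sms (chrX:157443855-157492287) and Amd1 (chr10:40287458-40302186).

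The synthesis genes were all far below Sat1. Odc1, the gene of ornithine decarboxylase, which starts the pathway, had 26.4 TPM in replicate 1, against 14.8 TPM in replicate 2 (20.6 ± 8.21 TPM). Sms, the gene of spermine synthase, had 13.2 and 14.1 TPM, and Amd1, the gene of the S-adenosylmethionine decarboxylase that supplies the aminopropyl donor, had 8.56 and 7.41 TPM. Srm, the gene of spermidine synthase, was lowest at 1.96 and 1.72 TPM, from 49 and 21 counts. Its deposited intervals, 1.62 to 3.36 and 1.18 to 3.35 TPM, show how little the depth fixes that level. The libraries overlapped for none of the pairs Srm and Amd1, Amd1 and Sms, or Sms and Odc1, so this order of gene levels held in both. In replicate 2 the deposited intervals of Sms (11.5 to 16.4 TPM) and Odc1 (12.2 to 17.8 TPM) nevertheless overlap. By coding transcripts alone the order was another one. Amd1 was the highest synthesis gene, at 7.56 and 6.76 TPM, and in replicate 2 Odc1 (4.37 TPM) lay below Sms (5.52 TPM). By the second quantification the coding level of Sms (3.71 TPM) was above that of Amd1 (3.32 TPM) in replicate 1. In replicate 2 Amd1 (4.29 TPM) was above Sms (3.44 TPM).

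Of the antizyme system, Oaz1, whose mRNA is read through a ribosomal frameshift that polyamines stimulate, had 44.4 TPM in replicate 1, against 27.5 TPM in replicate 2 (35.95 ± 11.9 TPM). Azin1, the antizyme inhibitor, had 24.8 and 26.7 TPM, and Oaz2, the second antizyme, had 9.78 and 9.09 TPM. The processed pseudogenes Oaz1-ps (2.89 and 1.67 TPM) and Oaz2-ps (1.46 and 2.78 TPM) resemble their parent genes, so reads may be split between them and the Oaz2 level in particular is uncertain.

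All 9 genes reached 1 TPM in both libraries, as did 46.0% of protein-coding genes. The order by mean TPM was Sat1, Oaz1, Azin1, Odc1, Sms, Paox, Oaz2, Amd1 and Srm. The values of the 2 libraries overlapped between Azin1 and Odc1 and between Sms and Paox, so these neighbours did not differ beyond their spread. The values of the other 6 pairs of neighbours did not overlap. The deposited intervals of Oaz2 and Amd1 nevertheless overlap in both libraries. In replicate 2 so do those of Oaz1 and Azin1, and of Odc1 and Sms. Sat1 exceeded the sum of the other 8 genes 4.94-fold in replicate 1 and 5.66-fold in replicate 2. When coding transcripts alone were summed, Sat1 still led at 132 and 74.1 TPM, followed by Oaz1 at 33.3 and 18.0 TPM and Azin1 at 17.0 and 17.5 TPM. On that scale Odc1, at 6.26 and 4.37 TPM, stood below Paox, Amd1 and Oaz2 in both libraries, although its range overlapped that of Oaz2. By the second quantification the coding level of Azin1 (14.6 TPM) was above that of Oaz1 (11.2 TPM) in replicate 2, but not in replicate 1.

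**Figure D3:**
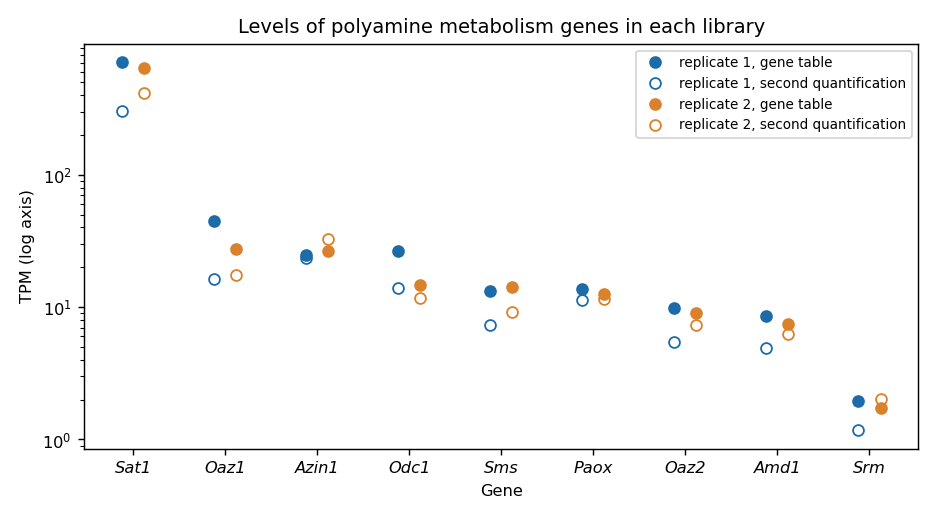
Gene level in TPM (log axis) of the 9 polyamine metabolism genes, in replicate 1 (blue) and replicate 2 (orange), from the gene tables (filled) and from the second quantification summed per gene (open). Sat1, at 706 and 645 TPM in the gene tables, stands above all other genes in both quantifications.

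Coding transcripts held under 50% of TPM in 3 of the 9 genes, namely Sat1, Odc1 and Sms, against 30.0% of the 5233 protein-coding genes at 10 TPM or more. These 3 are among the 6 members that reach that level themselves. By expected counts, which are not divided by length, the number was again 3, but the genes were not the same. Sms-201 held 366 of 603 counts of Sms in replicate 1 and 279 of 433 in replicate 2, so Sms was not among them. Oaz1 was, as its retained intron transcript Oaz1-206 held 575 of 1032 and 318 of 452 counts. In Odc1 the coding transcript held 23.7% in replicate 1 and 29.5% in replicate 2 of the gene's TPM. Its 5 retained intron transcripts together held 59.4% and 43.6%, and its decay transcripts 16.9% and 26.9%. The most abundant decay transcript was Odc1-205, at 3.94 and 3.59 TPM, beside 6.26 and 4.37 TPM for coding Odc1-201. Sms had 35.3% and 39.2% in coding transcripts, 54.8% and 42.5% in retained intron transcripts and 9.83% and 18.3% in the decay transcript. Its coding RNA was Sms-201, at 4.67 and 5.52 TPM.

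Retained intron transcripts held on average over 50% of TPM in 2 of the 9 genes, Sat1 (75.3 ± 5.34%) and Odc1 (51.5 ± 11.2%), beside 16.4% of the 5233 genes, and for Odc1 replicate 2 lay under 50%. The Odc1 share rests on short transcripts of 472 to 764 bases with few counts. Each had 10.7 to 33.3 counts in replicate 1 and 1.84 to 9.64 in replicate 2. By counts, coding Odc1-201 held 279 of 564 and 126 of 257. Oaz1 had 70.2 ± 6.69% in coding transcripts and 29.8 ± 6.69% in the retained intron transcript Oaz1-206 (11.1 and 9.50 TPM). Of its coding transcripts Oaz1-207 led by mean (19.8 and 6.73 TPM), but in replicate 2 Oaz1-205 was the highest (12.1 and 11.3 TPM). Azin1 had 66.9 ± 2.05% in coding transcripts, led by Azin1-201 (11.7 and 12.4 TPM), and Amd1 had 89.7 ± 1.97%, in Amd1-201 (7.56 and 6.76 TPM). Oaz2 had 60.4 ± 16.0%, and its highest single transcript by mean was the retained intron form Oaz2-205 (2.76 and 4.63 TPM). In replicate 1 coding Oaz2-206 was higher, at 5.31 TPM. By the second quantification a coding transcript led in each library, Oaz2-206 in replicate 1 (2.34 TPM) and Oaz2-201 in replicate 2 (3.82 TPM). In Srm the coding share was 100.0% in replicate 1 and 43.6% in replicate 2, which at this depth gives no usable estimate. In Azin1 5.49 ± 0.246% was in decay transcripts, whereas Oaz1, Oaz2, Amd1 and Srm have none annotated and Paox-203, the decay transcript of Paox, was at 0 TPM in both libraries. The median coding share over the 9 genes was 66.9%, beside 64.9% over the 5233 genes. By the second quantification the coding share was 46.4% and 44.4% in Azin1, and 67.3% and 68.5% in Amd1. The highest Azin1 transcript there was the processed transcript Azin1-208, at 4.88 and 7.84 TPM. The small SDs of these 2 genes therefore do not cover the difference between quantifications.

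**Figure D4:**
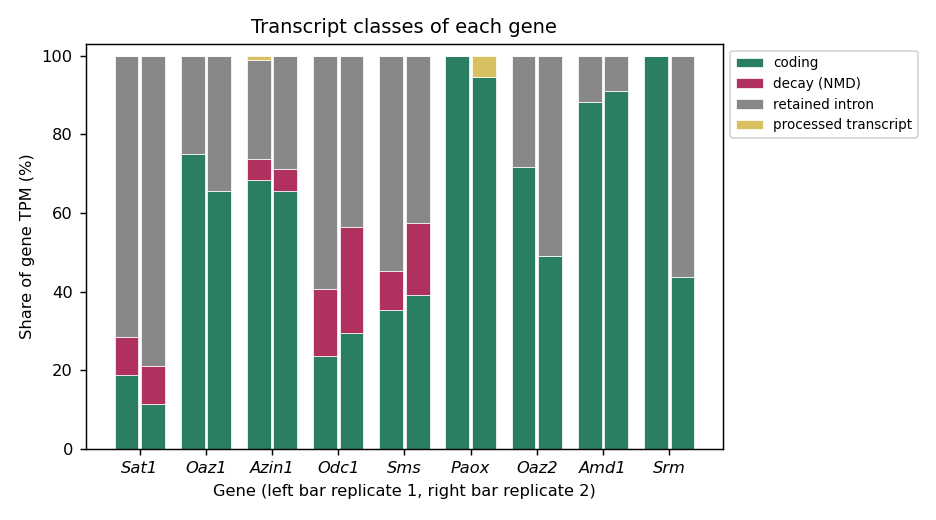
Share of each gene's TPM (%) held by coding, nonsense-mediated decay, retained intron and processed transcripts; the left bar of a pair is replicate 1 and the right bar replicate 2. The coding share of Sat1, 18.7% in replicate 1 and 11.5% in replicate 2, is the lowest of the 9.

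Replicate 1 was then compared with replicate 2, as libraries of 1 group and not as conditions. On log2(TPM + 1), relative to the median gene, the median over the 9 genes was 0.02, and 5 of them were higher in replicate 1 and 4 lower. None was more than 2-fold apart, beside 4.42% of the 13951 genes averaging 1 TPM or more. Odc1 had 0.69 and Oaz1 0.57. The others lay between -0.20 for Azin1 and 0.08 for Amd1, with Sat1 at 0.03. The central 90% of all genes ran from -0.58 to 0.75, and all 9 genes lay inside it.

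**Figure D5:**
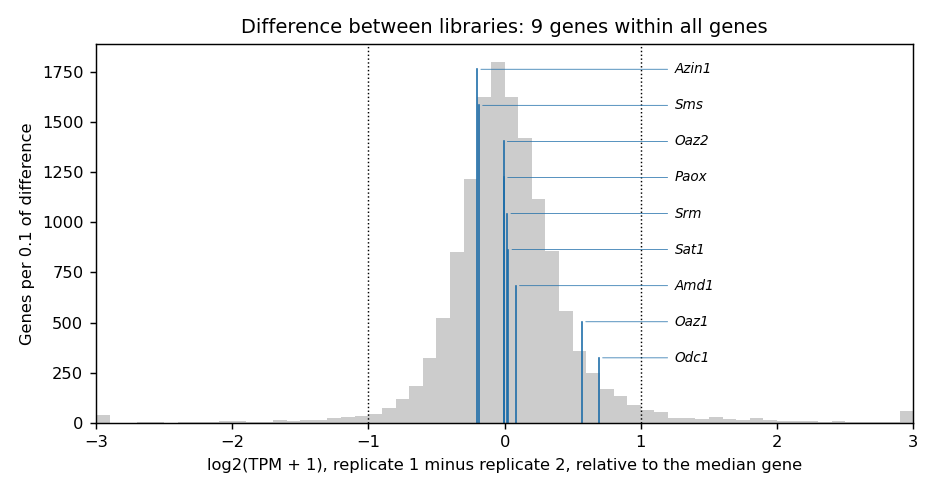
Difference between libraries in log2(TPM + 1), replicate 1 minus replicate 2 relative to the median gene, for 13951 genes (grey bars, genes per 0.1; the end bars hold values beyond the axis) and for the 9 polyamine genes (blue lines, with heights staggered for the labels). Dotted lines mark 2-fold; Odc1 (0.69) and Oaz1 (0.57) lie farthest from 0 and none of the 9 passes 2-fold.

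Within genes, single transcripts differed more. Of 31 transcripts of the 9 genes averaging 1 TPM or more, 7 were more than 2-fold apart, beside 11.0% of all 34114 such transcripts. Sat1-201 had a difference of 1.20 and Oaz1-207 of 1.35, both coding and higher in replicate 1. Sat1-202 had -2.08, while Sat1-207 (0.10) and Sat1-206 (0.15) were close to the median transcript and Sat1-205 had -0.27. Relative to the median gene, the gene level of Sat1 was nearly equal in the libraries (0.03). Its deposited intervals, 660 to 682 TPM in replicate 1 and 584 to 611 TPM in replicate 2, were nevertheless apart. In plain TPM the coding RNA of Sat1 was 1.78-fold higher in replicate 1. Its retained intron RNA was 505 and 510 TPM. Coding RNA of Oaz1 was 1.85-fold higher in replicate 1 and that of Odc1 1.43-fold, while that of Azin1 (0.972-fold) and Sms (0.846-fold) was lower. By the second quantification these ratios of replicate 1 to replicate 2 were 1.30 for Sat1, 1.06 for Oaz1 and 0.986 for Odc1. They were 0.753 for Azin1 and 1.08 for Sms, so as plain ratios the direction turned for Odc1 and Sms. The ratios in both quantifications are not relative to the median gene, so an offset of the whole library enters them. Relative to the median transcript, Odc1-201, the coding transcript of Odc1, had 0.35, and 0.33 by the second quantification, so its direction held. Sat1-201 had 1.13 by the second quantification on that scale. The coding share of Sat1 was 7.204 percentage points higher in replicate 1, inside the central 90% of this difference over the 5233 genes, which ran from -11.1 to 16.6 points. The nuclear RNA Malat1 differed the other way, at 19912 TPM in replicate 1, against 30438 TPM in replicate 2; its part in these differences was not tested. Oaz2-206 (2.56) and Oaz2-201 (-2.15), coding transcripts of near-equal length, differed in opposite directions with overlapping deposited intervals, so reads may be split between them.

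The gene tables were also set beside the second quantification. None of the 9 genes was more than 2-fold apart relative to the median gene, beside 25.5% of the 17387 genes compared. By the second quantification Sat1 had 304 TPM in replicate 1, against 413 TPM in replicate 2. In plain TPM the library with the higher Sat1 level was therefore not the same in the 2 quantifications. An offset of the whole library enters these plain values. Relative to the median gene, Sat1 differed little between libraries: replicate 1 minus replicate 2 was -0.06 here, beside 0.03 from the gene tables. The retained intron share of Sat1 by the second quantification was 75.7% and 82.3%, and its coding share 13.5% and 7.65%. Oaz1 stood at 16.4 and 17.3 TPM, below Azin1 at 23.7 and 32.9 TPM, which turned their order in the gene tables. The order of Sms and Paox also turned, and the other pairs of neighbours kept theirs.

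Of 38 further genes of the pathway, 22 reached 1 TPM in both libraries, 15 in neither and Arg1 in replicate 1 only (1.89 TPM, and 0.45 TPM in replicate 2). By the second quantification 25 reached it: Arg1 (1.86 and 2.33 TPM), Sat2 (1.52 and 2.58 TPM), Oaz3 (1.15 and 1.69 TPM) and Slc12a8 were added, and Eif5a2 (0.589 and 0.780 TPM) was not among them. Of 10 genes of arginine and ornithine supply, 5 were detected. Slc3a2, the heavy chain shared by several amino acid transporters, had the highest level (149 and 122 TPM), followed by the argininosuccinate lyase gene Asl (15.7 and 12.2 TPM) and Slc7a7 (11.6 and 5.82 TPM). The arginase gene Arg2 (0.49 and 0.12 TPM), the arginine transporter gene Slc7a2 (0.41 and 0.13 TPM), Ass1 (0.70 and 0.19 TPM) and Agmat (0 counts) were under 1 TPM. Arg1 and Arg2 encode arginase, which makes the ornithine that ornithine decarboxylase uses.

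In the methionine cycle and the salvage of methylthioadenosine, the by-product of spermidine and spermine synthesis, 9 of 10 genes were detected. Mat2a, which makes S-adenosylmethionine, had 57.1 and 52.4 TPM, Mtr had 19.8 and 21.95 TPM, and Mat2b had 20.8 and 17.5 TPM. Amd2, a close relative of Amd1, was at 0.03 and 0.04 TPM. Among 4 other breakdown genes Smox, the spermine oxidase gene, was the one detected, at 24.2 and 16.9 TPM, above Paox in both libraries. Sat2 (0.88 and 0.68 TPM) and Satl1 (0.15 and 0.06 TPM), relatives of Sat1, and Aoc1 (0 counts) were under 1 TPM. Of the other antizyme genes, Oaz3, an antizyme of the testis, was at 0.52 and 0.24 TPM, and Azin2, a second antizyme inhibitor, at 1.78 and 1.70 TPM.

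Of 8 transport genes 2 were detected: Atp13a2, which exports polyamines from lysosomes, at 138 and 112 TPM, and Atp13a3, its relative, at 21.9 and 21.1 TPM. Atp13a4 (0.00 and 0.02 TPM) and Slc18b1 (0.37 and 0.84 TPM) were low, and Slc22a2, Slc22a3 and Slc12a8 were among those with 0 counts. Over the 6 pathway genes with 0 counts in both libraries, 3 counts would give 0.0372 to 0.114 TPM in replicate 1 and 0.0576 to 0.176 TPM in replicate 2, the upper limit that a count of 0 allows for counting error. Slc12a8 stood at 3.15 TPM in both libraries by the second quantification, so its level is uncertain. All 4 genes of eIF5A and its spermidine-dependent hypusine modification were detected: Eif5a at 32.7 and 37.7 TPM, Dhps at 24.9 and 22.4 TPM, Dohh at 5.91 and 3.23 TPM, and Eif5a2 at 1.27 and 1.21 TPM.

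By distance on log2(TPM + 1) over the 2 libraries, the 3 protein-coding genes nearest to Sat1 were Mpeg1 (718 and 576 TPM, distance 0.164), Actb (783 and 699 TPM, 0.189) and Sirpa (690 and 539 TPM, 0.261). With 2 libraries of 1 group this likeness is one of level.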

How the data were processed

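For each of the 2 libraries the authors deposited gene and transcript tables of one format, and a transcript table of another, called the second quantification. Accompanying deposited text files derive the gene and transcript tables from mm10 transcriptome alignments with GENCODE M21, which the second quantification also used. Programs and strand settings are stated nowhere in the sources used here. The expected counts, as deposited, need not be whole and were rounded for scaling with edgeR 4.0.16 and DESeq2 1.42.0 (R 4.3.3). TPM was scaled by the authors over all entries of a table. The deposited interval bounds are a signal that is never negative.

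Symbols and transcript classes were read from the second table and joined by identifier; all 9 members and all 38 pathway genes matched. Entries without an annotated gene (1.18% of counts in replicate 1 and 0.405% in replicate 2) were left out of the counts given. Detection required 1 TPM in both libraries. Shares are transcript TPM over gene TPM, averaged over libraries. Differences used log2(TPM + 1), centred on the median gene or transcript with a mean of at least 1 TPM. The function was tested on simulated data. No p-value was computed, as each side is 1 library. Python 3.11.15, numpy 2.4.6 and pandas 2.3.3 were used.

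Members, gene lists and settings were chosen with earlier results of these data known. The genes named are all members, all Sat1 transcripts at 1 TPM or more, the leading transcripts of other members, the 3 highest and the undetected genes of each pathway list, and the 3 genes nearest to Sat1; other transcripts were named after their values were seen. Some genes of these lists are counted but not reported by name here. Replicate numbers come from the labels. Alternatives tried were other detection limits, pseudocounts and filters, no centring, posterior means, expected counts, TMM and size factors, TPM rescaled to protein-coding genes, decay transcripts counted as coding, Sat1 without its highest transcript, the second quantification and each library alone. Counting limits and intervals cover counting and assignment error only: reads lacking molecular identifiers can be copies of 1 molecule.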

Additional observations from a re-analysis of the deposited data

How the results depend on the processing

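No paired analysis was possible because the 2 libraries form 1 group. All 9 genes were detected under every setting tried except detection at 5 TPM, where 8 were and Srm was not. Of the wider pathway, 22 genes were detected in the main setting, 13 at 5 TPM, and 22 to 29 under the other settings (22 to 23 with 1 library left out). The retained intron share of Sat1, 75.3%, lay between 75.3% and 79.0% with posterior means, expected counts and the second quantification, and between 71.5% and 79.1% with 1 library left out. Without Sat1-205, a setting added after seeing the data, it was 53.4%, as the removal of its largest part implies. Coding transcripts held under 50% of TPM in 3 genes (Sat1, Odc1 and Sms), and in 3 by expected counts, with Oaz1 in place of Sms. By the second quantification it was 5, with Azin1 and Srm added. With replicate 1 left out it was 5, with Oaz2 (49.1%) and Srm (43.6%) added, and with replicate 2 left out 3. With decay transcripts counted as coding, also added after seeing the data, it was 2, Sms no longer being among them. Why the shares of these genes moved was not tested. None of the 9 genes was more than 2-fold apart between libraries under any of the 6 alternatives. Without centring, 1 gene, Oaz1, was more than 2-fold apart between the quantifications. The sign of the small difference between libraries turned in 5 genes by the second quantification (Sat1, Oaz2, Srm, Sms and Paox), and in 2 each without a filter, without centring (Oaz2 and Paox both times), with TMM and with size factors (Sat1 and Oaz2 both times). Levels moved by more than the SD between libraries in 8 of 9 genes by the second quantification. Rescaling TPM to protein-coding genes multiplies every level alike, by 3.23 in replicate 1 and 3.39 in replicate 2. The depth limits Srm, with 49 and 21 counts, most.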
